A study of Mus musculus with 43 samples.

Results

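The 10 genes of creatine and calcium futile cycling studied here were followed in inguinal white adipose tissue, the subcutaneous fat depot of the mouse groin. They are a list of names set by function, drawn up with earlier results of these data known, and all 10 were found among the 22622 genes of each deposited table. Belonging to the creatine side are Gatm, Gamt, Slc6a8, Ckb, Ckmt1, Ckmt2 and Alpl. Atp2a1, Atp2a2 and Ryr2 move calcium across the sarcoplasmic or endoplasmic reticulum. Poly(A) RNA was measured in 43 libraries of 9 groups. C57BL/6J wild-type mice were sampled at P28 after housing at 22 C (n = 4) or 30 C (n = 4), and at 9 weeks at 22 C (n = 4) or 4 C (n = 4). TrkA-flox Th-cre mice were sampled at P28 and 22 C (n = 4), and were compared with the same 4 wild-type libraries as the 30 C group. Bcl6-flox mice without Cre (n = 7) and Bcl6-flox Prx1-cre mice (n = 8) were sampled at P25 and 22 C, and both genotypes again at 9 weeks and 4 C (n = 4 each), so that both arms of each Bcl6 comparison carry the floxed allele. The Th promoter drives Cre in catecholamine-making cells, sympathetic neurons among them, and the Prx1 enhancer drives it in limb and other mesenchyme and its descendants. The wild-type controls of the TrkA comparison carry neither the floxed allele nor Cre, so the floxed allele, the Cre driver and strain background cannot be told apart there.

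In the mouse build mm10, Gatm lies at chr2:122594473-122611277, Gamt at chr10:80258151-80261025, Slc6a8 at chrX:73673133-73682502, Ckb at chr12:111669355-111672338, Ckmt1 at chr2:121357773-121363737, Ckmt2 at chr13:91853386-91876923 and Alpl at chr4:137741731-137796384. Atp2a1 lies at chr7:126445858-126463103, Atp2a2 at chr5:122453513-122502225 and Ryr2 at chr13:11553099-12106945. The files give 1 value per gene and library.

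Futile cycles spend ATP without net work and so release heat. In the creatine cycle, Gatm (glycine amidinotransferase) and Gamt (guanidinoacetate methyltransferase) make creatine, Slc6a8 imports it, and the creatine kinases charge it to phosphocreatine: Ckb in the cytosol and, in thermogenic fat, also at mitochondria, and Ckmt1 and Ckmt2 in the mitochondrial intermembrane space. Alpl, the tissue-nonspecific alkaline phosphatase, can split phosphocreatine and so close the cycle. In the calcium cycle, the pumps Atp2a1 (SERCA1, the fast-muscle form) and Atp2a2 (SERCA2, the widespread form) carry calcium into the reticulum, and Ryr2, a ryanodine receptor, lets it out again. Both cycles have been described in beige adipocytes as sources of heat beside Ucp1, the mitochondrial uncoupling protein.

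Several of these genes are also strongly expressed outside adipocytes, so each library was read for admixed tissue. The muscle creatine kinase Ckm and skeletal actin Acta1 ranged from 0 and 8.57 normalized counts in replicate 2 of the 9-week 4 C wild-type mice to 69363 and 102690 in replicate 3 of the 9-week Bcl6-flox mice. Summed over the 17 measured genes of a 20-gene skeletal muscle list, the level ran from 162 to 565490. The keratin Krt8, a marker of the mammary and other simple epithelia, ran from 4.69 to 11153. Adipocyte markers were high throughout, none of the 9 measured being at 0 in any library. Total Bcl6 could not serve as a check on the labels: a gene's total does not show which exons were read, and it was higher, not lower, with Prx1-cre at both ages (825 ± 340 against 2714 ± 584 at P25, SD, n = 7 and 8). Estimated depth was 3503000 to 15780000 reads per library at P25 and P28, and 6268000 to 30730000 at 9 weeks. In bulk tissue, fewer cells of a type and less RNA per cell cannot be told apart.

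Promoter windows were matched in RefSeq (GRCm38.p6) for 8 of the 10 members, all but Atp2a2 and Slc6a8. The windows below hold the 250 bases before the start of the creatine genes that changed in these data: Ckb, which rose in adult cold, Gatm and Gamt, which fell there, and Alpl, which rose with Prx1-cre at P25. All 4 genes lie on the minus strand, and each line reads 5′ to 3′ toward the gene. Capitals mark 4 short motifs, searched on both strands. One is TATAAA, the TATA box, which reads TTTATA when it lies on the other strand. The CCAAT box, CCAAT, then reads ATTGG. A half-site of the cAMP response element, TGACG, then reads CGTCA. A half-site bound by nuclear receptors, AGGTCA, then reads TGACCT.
Ckb promoter, chr12:111672339-111672588, minus strand: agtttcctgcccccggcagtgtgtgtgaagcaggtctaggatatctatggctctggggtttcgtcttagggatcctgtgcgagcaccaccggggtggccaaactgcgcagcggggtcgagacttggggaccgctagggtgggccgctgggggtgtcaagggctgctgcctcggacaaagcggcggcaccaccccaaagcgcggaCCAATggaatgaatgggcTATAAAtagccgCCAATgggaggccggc
Gatm promoter, chr2:122611278-122611527, minus strand: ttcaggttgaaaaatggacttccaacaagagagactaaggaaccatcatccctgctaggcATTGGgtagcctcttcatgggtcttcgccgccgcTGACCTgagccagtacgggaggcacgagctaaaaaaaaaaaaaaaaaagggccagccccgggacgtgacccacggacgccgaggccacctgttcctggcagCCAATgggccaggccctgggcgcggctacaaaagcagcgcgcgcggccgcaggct
Gamt promoter, chr10:80261013-80261262, minus strand: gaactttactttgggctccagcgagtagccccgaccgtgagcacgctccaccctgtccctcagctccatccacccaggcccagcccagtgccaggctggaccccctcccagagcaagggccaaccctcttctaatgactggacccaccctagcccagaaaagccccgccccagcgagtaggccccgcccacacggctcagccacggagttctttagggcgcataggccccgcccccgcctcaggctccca
Alpl upstream promoter, chr4:137796385-137796634, minus strand: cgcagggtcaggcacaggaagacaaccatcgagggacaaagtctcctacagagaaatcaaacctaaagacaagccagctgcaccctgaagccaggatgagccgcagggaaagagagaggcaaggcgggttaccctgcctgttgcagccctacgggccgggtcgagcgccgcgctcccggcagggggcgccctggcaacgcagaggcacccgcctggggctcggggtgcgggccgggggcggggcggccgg
Alpl downstream promoter, chr4:137766476-137766725, minus strand: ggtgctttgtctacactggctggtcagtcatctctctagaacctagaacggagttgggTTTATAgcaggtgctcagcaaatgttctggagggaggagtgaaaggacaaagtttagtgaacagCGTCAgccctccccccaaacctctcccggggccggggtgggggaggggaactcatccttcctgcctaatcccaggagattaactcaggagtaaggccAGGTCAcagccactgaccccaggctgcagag
The Ckb window holds TATAAA between 2 CCAAT motifs, close to the start. In the Gatm window there are 2 CCAAT motifs, 1 on each strand, and AGGTCA on the reverse strand, while none of the 4 motifs is present in the Gamt window. Alpl has 2 annotated starts: the upstream window holds none of the motifs, and the downstream one holds TATAAA and TGACG on the reverse strand and AGGTCA on the forward strand. Of 32851 windows of this length, 12.4% hold TATAAA, 33.9% CCAAT, 17.8% TGACG and 14.02% AGGTCA. These matches describe letters in the windows only, and the gene totals do not show which Alpl start was used.

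The comparison of adult wild-type mice at 4 C and 22 C asks what cold recruits in grown animals. Ckb and Atp2a2 rose, and the creatine synthesis genes Gatm and Gamt fell. A gene was tested where enough libraries reached a value of 10, and was called at an adjusted p under 0.05 (limma on log2(value + 1), Benjamini-Hochberg over all tested genes). By this rule 4 of 8 tested members were called, 2 in each direction, where 4.47% of all tested genes were called, 2.03% as higher and 2.44% as lower at 4 C; Slc6a8 and Ryr2 were too low to test. The median log2 fold change was 0.43 over the tested members and 0.02 over all tested genes.

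Ckb, the cytosolic kinase, measured 333.2, 304.3, 315.5 and 297.3 normalized counts at 22 C and 935.2, 1390.4, 595.8 and 507.3 at 4 C. Every cold library lay above every warm one, and the cold libraries differed from each other by more than the warm ones did. The means were 313 ± 15.6 and 857 ± 401 (SD, n = 4 each), or 1.34 ± 0.29 in log2 units (SE, adjusted p = 0.0424 by limma). Ucp1 in the same 4 cold libraries was 20254, 40150, 14800 and 9406.5, so that Ckb and Ucp1 placed the 4 libraries in the same order. Krt8 there was 811, 4.69, 2128 and 1922, the pair with more Ckb having less of it, and its part in the spread of Ckb was not tested. Over all 43 libraries, with each group centred on its mean, the log2 value of Ckb had a correlation of only 0.20 with Ucp1, and of -0.47 with Krt8.

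Gatm, which catalyses the first step of creatine synthesis, measured 110.9, 119.6, 129.3 and 129.8 at 22 C and 52.4, 66.2, 59.5 and 59.8 at 4 C. The groups were far apart relative to their spread: 122 ± 9.02 fell to 59.5 ± 5.63 (SD, n = 4 each), or -1.03 ± 0.14 in log2 units (SE, adjusted p = 0.0130 by limma). Gamt, the second step, measured 112.4, 163.4, 81.8 and 147.7 at 22 C and 39.3, 30.8, 16.3 and 54.5 at 4 C. It fell further, by 1.88 ± 0.38 on the log2 scale (SE; limma adjusted p = 0.0374), with wider spread in both groups. The importer Slc6a8 was near the limit of detection, at 6.57 ± 4.31 and 4.67 ± 3.80 (SD, n = 4 each).

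Alpl, the phosphatase of the cycle, measured 51.5, 54.9, 145.4 and 144.2 at 22 C and 249.5, 187.6, 213.2 and 241.5 at 4 C. All 4 cold libraries lay above all 4 warm ones, but the warm libraries split into a low pair and a high pair, and the difference did not pass the test (99.0 ± 52.9 against 223 ± 28.3, SD, n = 4 each; log2 fold change 1.32 ± 0.37, SE; limma adjusted p = 0.0757). The low pair, replicates 1 and 2, had almost no Xist (12.6 and 5.69), little Krt8 (49.1 and 11.3) and little Ckm (0.970 and 4.75). The high pair had Xist of 7925 and 7933, Krt8 of 1109 and 818, and Ckm of 5234 and 2144. With a term for Xist, the transcript of the inactive X chromosome in females, Alpl passed (adjusted p = 0.0145 by limma), as it did with terms for the muscle list (0.00777) or the mammary epithelium list (0.0147), with quantile normalization (0.0462) and with replicate numbers as a block (0.0367), and in none of the other 13 fits.

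Atp2a2 measured 1751.7, 1755.8, 1974.3 and 2451.5 at 22 C and 3305.2, 3909.0, 2974.6 and 2890.7 at 4 C. The groups did not overlap, and the pump rose from 1983 ± 329 to 3270 ± 462 (SD, n = 4 each), or 0.72 ± 0.15 in log2 units (SE, adjusted p = 0.0387 by limma). Atp2a1 went from 3.93, 3.84, 7468 and 3352 at 22 C to 6004, 1.18, 201 and 2158 at 4 C, with no order by temperature. Ckm in the same libraries was 0.970, 4.75, 5234 and 2144, then 3272, 0, 113 and 1002. The 2 pumps therefore differed in kind here: one separated the temperatures in all 8 libraries, and the other ranged over more than 3 orders of magnitude within each. Ckmt1 (14.4 ± 14.8 and 17.5 ± 18.1) and Ckmt2 (39.6 ± 47.6 and 21.4 ± 24.1; SD, n = 4 each) had SDs above or near their means in both groups, and neither was called. Ryr2 was 5.90 ± 1.51 at 22 C and 3.42 ± 0.14 at 4 C (SD, n = 4 each), under the level needed for a test.

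Counting members whose groups did not overlap at all, there were 5 (Alpl, Atp2a2, Ckb, Gamt and Gatm), where 17.3% of all tested genes had groups that did not overlap. The calls rest on all 8 libraries. Gatm was called in 7 of 8 fits with 1 library left out (adjusted p = 0.0595 without 4 C replicate 1), Gamt in 2 (without 22 C replicate 3 or 4 C replicate 4), Ckb in 1 (without 4 C replicate 4) and Atp2a2 in none (0.0503 to 0.121), while no left-out library turned a direction.

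**Figure D1:**
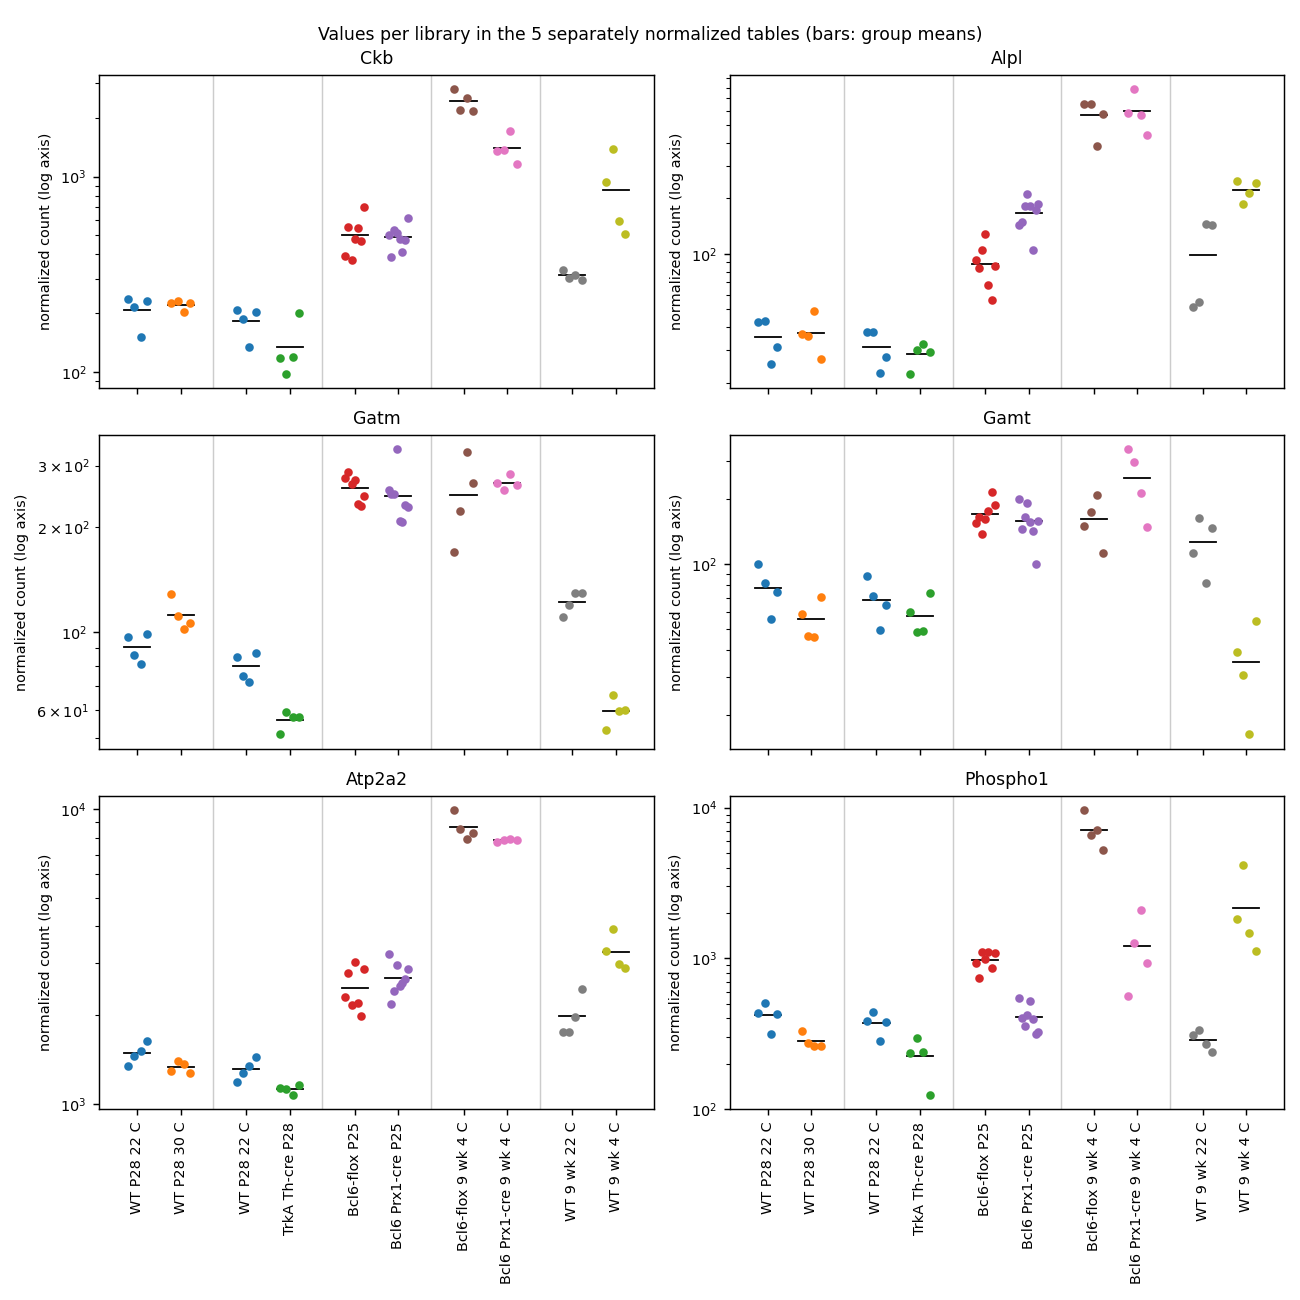
Normalized counts per library (log axis) of Ckb, Alpl, Gatm, Gamt, Atp2a2 and, from the wider creatine list, Phospho1; each point is 1 library, short bars are group means, and grey lines divide the 5 tables, which were normalized separately and are not on 1 scale. In the last pair of columns every 4 C library of Ckb, Alpl, Atp2a2 and Phospho1 lies above every 22 C library, and every 4 C library of Gatm and Gamt lies below.

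A fixed list of 19 other genes, the creatine list, was set around the creatine pathway. Not all of them act on creatine itself, and the link of their changes to the creatine pool was not tested. Of the 19, 17 were tested in adult cold. Of these 2 rose and none fell, where 2.03% of all tested genes were called higher and 2.44% lower. Phospho1, a phosphatase known for releasing phosphate from phosphocholine and phosphoethanolamine, measured 310.8, 336.0, 268.3 and 239.0 at 22 C and 1824, 4185, 1481 and 1119 at 4 C. The cold libraries were all above the warm ones, in the same order as for Ckb and Ucp1, and the log2 fold change was 2.72 ± 0.36 (SE, adjusted p = 0.0130 by limma; 0.0540 without 4 C replicate 1). Slc25a5, an ADP/ATP carrier of the inner mitochondrial membrane, rose by 0.94 ± 0.22 in log2 units (SE, adjusted p = 0.0480 by limma), a call lost when any 1 of the 8 libraries was left out (0.0583 to 0.145). The list's median log2 fold change was 0.32, against 0.02 over all tested genes. Of 29 tested genes in a fixed list of 38 other calcium-handling genes, 1 rose, Asph (1.14 ± 0.25, SE; limma adjusted p = 0.0463), and none fell; without 1 library Asph passed in 1 of 8 fits (up to 0.127). That list's median was 0.00, and its 1 call of 29 was near the share of all tested genes called, 4.47%.

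Mice at 9 weeks and 4 C were also compared between Bcl6-flox animals with and without Prx1-cre. Ckb was lower in the Prx1-cre group, and it was the 1 called member of 10 tested, where 14.5% of all tested genes were called, 9.01% as higher and 5.46% as lower. The 4 flox libraries measured 2811.3, 2183.1, 2522.8 and 2164.9 and the 4 Prx1-cre libraries 1357.8, 1372.3, 1715.4 and 1156.5. Every Prx1-cre library lay below every flox library. Ckb fell from 2420.5 ± 308 to 1400.5 ± 232 (SD, n = 4 each), or -0.79 ± 0.13 in log2 units (SE, adjusted p = 0.00614 by limma). It was the 1 member whose groups did not overlap, where 22.3% of tested genes had such groups, and it was called in all 17 other fits, at -0.90 to -0.71. Of 14 tested genes in a beige and brown thermogenic list, 11 were called lower and 1 higher in the Prx1-cre group. Their relation to the fall of Ckb was not tested.

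The remaining creatine genes did not pass in this comparison. Alpl was 566 ± 125 in flox and 596 ± 142 in Prx1-cre mice, Gatm 247 ± 67.1 and 268 ± 12.1, and Slc6a8 37.7 ± 8.52 and 34.7 ± 1.57 (SD, n = 4 each). Gamt was 162 ± 41.4 and 251 ± 85.4 (SD, n = 4 each; log2 fold change 0.59 ± 0.28, SE; limma adjusted p = 0.200). Atp2a2 was 8666 ± 886 and 7821 ± 83.6 (SD, n = 4 each), its log2 fold change of -0.14 having a 95% interval of -0.33 to 0.04. Ryr2 was 13.1 ± 5.73 and 23.9 ± 7.26 (SD, n = 4 each; log2 fold change 0.89 ± 0.40, SE; limma adjusted p = 0.174).

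One flox library, replicate 3, stood apart. Its Ckm was 69363 against 279 to 3274 in the other 3 flox libraries, its Atp2a1 was 127700 against 391 to 4288, and its Ckmt2 was 1666 against 11.99 to 20.1. It also had the lowest Krt8 of the 8 libraries (732 against 2049 to 11153) and the lowest Ckmt1 (14.2 against 42.4 to 178). Without it, Ckmt1 was called, at -1.50 in log2 units (adjusted p = 0.00162 by limma), against -0.68 ± 0.71 (SE; adjusted p = 0.557) with it. The epithelial list was higher in the other 3 flox libraries (27244 to 37469 summed over 9 genes) than in the Prx1-cre libraries (7543 to 17416), and the part of these transcripts in the Ckmt1 difference was not tested beyond the fit that has the epithelial list as a term, where the Ckmt1 log2 fold change was 0.17.

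In the wider lists, Phospho1 fell from 7144 ± 1851 in flox to 1208 ± 649 in Prx1-cre mice (SD, n = 4 each), by 2.69 ± 0.37 on the log2 scale (SE; limma adjusted p = 0.00310), and was called in all 17 other fits. It was the 1 called gene of 18 tested in the creatine list, whose median log2 fold change was -0.08, against -0.02 over all tested genes. Of 31 other calcium genes 5 rose and none fell, in a table where 14.5% of all tested genes were called and 9.01% were called higher, and the list median was -0.11. Of these, 3 remained called whichever library was left out: the plasma membrane calcium pumps Atp2b1 (0.55 ± 0.08, SE; adjusted p = 0.00443) and Atp2b4 (0.64 ± 0.13; 0.0126), and the inositol trisphosphate receptor Itpr1 (0.33 ± 0.06; 0.0103). The third SERCA gene, Atp2a3 (0.48 ± 0.13, SE; limma adjusted p = 0.0383), and the ryanodine receptor-binding protein gene Fkbp1b (1.07 ± 0.29; 0.0439) kept the call in 1 and 2 of 8 such fits. With replicate numbers as a block, Atp2b4 (0.0538), Atp2a3 (0.0576) and Fkbp1b (0.0804) lost the call. Other cell types moved beside these calls: 7 of 10 macrophage markers and 3 of 10 endothelial markers rose and none fell, and of 10 smooth muscle and pericyte markers Rgs5 and Pdgfrb rose and Cspg4 fell. Their part in the calcium genes was not tested.

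At P25 and 22 C, the same pair of genotypes differed in another member. Alpl was higher in Prx1-cre mice and was the 1 called member of 10 tested, where 3.53% of all tested genes were called, 1.56% as higher and 1.97% as lower. Flox libraries measured from 56.4 through a median of 85.9 to 128.5 normalized counts, and Prx1-cre libraries from 104.8 through 176.7 to 212.7. The ranges overlapped in 3 libraries, flox M3 and M4 and Prx1-cre F2. Alpl rose from 88.5 ± 23.8 (SD, n = 7) to 167 ± 33.2 (SD, n = 8), or 0.92 ± 0.18 in log2 units (SE, adjusted p = 0.00648 by limma), and was called in all 24 other fits, at 0.82 to 1.019. In the same libraries Ucp1 fell from 6405 ± 3016 (SD, n = 7) to 375 ± 234 (SD, n = 8), with no overlap. Of 14 tested genes in a beige and brown thermogenic list, 9 were called lower and 2 higher.

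The columns of this table carry an M or an F, and Xist was high in all 7 libraries marked F and in none of the 8 marked M. Within M, flox libraries had Alpl of 83.4 to 128.5 and Prx1-cre libraries 143.7 to 212.7. Within F, flox libraries had 56.4 to 85.9 and Prx1-cre libraries 104.8 to 187.3. Neither pair of ranges overlapped. With Xist as a term the log2 fold change of Alpl was 0.95 (limma adjusted p = 0.00310), and with the muscle list as a term it was 0.84 (0.0184).

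No other creatine gene was called at P25. Ckb measured 375 to 700 in flox and 388 to 617 in Prx1-cre libraries, with means of 503 ± 110 (SD, n = 7) and 489 ± 71.3 (SD, n = 8). Its log2 fold change of -0.02 had a 95% interval of -0.30 to 0.25. Gatm was 259 ± 22.3 and 245 ± 40.2, and Gamt 172 ± 25.4 and 158 ± 31.1 (SD, n = 7 and 8). Slc6a8 was 11.3 ± 4.31 and 16.0 ± 5.36 (SD, n = 7 and 8), with a 95% interval of its log2 fold change of -0.14 to 1.12. Ckmt1 was 427 ± 128 and 458 ± 216 (SD, n = 7 and 8). Ckmt2 was 47.8 ± 40.8 and 57.3 ± 89.9 (SD, n = 7 and 8), but its log2 fold change was -1.43 (interval -3.69 to 0.83), opposite in sign to the difference of the means. Of the calcium genes, Atp2a2 was 2473 ± 407 and 2672 ± 333 (SD, n = 7 and 8; 95% interval of the log2 fold change -0.11 to 0.34). Ryr2 was 12.3 ± 4.82 and 12.6 ± 6.42, and Atp2a1 2005 ± 1471 and 2436 ± 4314 (SD, n = 7 and 8). No member had groups that did not overlap, where 1.3% of tested genes did.

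Phospho1 again fell, from 972 ± 140 (SD, n = 7) to 410 ± 84.5 (SD, n = 8), with flox libraries at 738 or more and Prx1-cre libraries at 541 or less. The log2 fold change was -1.26 ± 0.13 (SE, adjusted p = 2.018e-05 by limma), and all 24 other fits called it. Ak4, a mitochondrial adenylate kinase, fell by 0.52 ± 0.13 on the log2 scale (SE; adjusted p = 0.0400), a call kept in 2 of 15 fits with 1 library left out. These were the 2 called of 15 tested in the creatine list, where 3.53% of all tested genes were called. The list's median was 0.01, against 0.00 over all tested genes. Of 30 other calcium genes, 1 rose, Atp2b4 (0.48 ± 0.10, SE; limma adjusted p = 0.0166), and none fell, with a list median of -0.03.

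The P28 comparison asks what housing at 30 C, near thermoneutrality for mice, changes shortly after weaning. No member passed, of 8 tested (Ckmt2 and Slc6a8 were too low), where 4.45% of all tested genes were called, 1.29% as higher and 3.17% as lower at 30 C; 4 members had an unadjusted p under 0.05. Ckb measured 237.1, 214.2, 151.6 and 230.4 at 22 C and 225.3, 231.8, 204.0 and 225.5 at 30 C. Warm and cool libraries were intermixed, at 208 ± 39.0 and 222 ± 12.2 (SD, n = 4 each), with a 95% interval of the log2 fold change of -0.20 to 0.42. Alpl was likewise intermixed, at 35.6 ± 8.70 and 37.3 ± 9.17 (SD, n = 4 each; interval -0.49 to 0.62). In the same libraries Ucp1 ran from 950 to 2194 at 22 C and from 59.3 to 169 at 30 C.

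Gatm measured 96.7, 85.9, 81.3 and 99.1 at 22 C and 129.0, 111.4, 102.0 and 106.5 at 30 C. It was the 1 member whose groups did not overlap, where 12.9% of tested genes had such groups (log2 fold change 0.30 ± 0.11, SE; limma adjusted p = 0.184). Gamt was 78.1 ± 18.3 at 22 C and 55.7 ± 11.6 at 30 C (log2 fold change -0.47 ± 0.21, SE; limma adjusted p = 0.254), and Atp2a2 1487 ± 122 and 1329 ± 60.0 (-0.16 ± 0.07; 0.257; SD, n = 4 each). Ryr2 was 15.2 ± 4.15 and 16.7 ± 5.09 (SD, n = 4 each). Slc6a8 stood at 3.59 ± 2.46 and 7.88 ± 3.89, and Ckmt2 at 1.99 ± 0.74 and 14.7 ± 13.4 (SD, n = 4 each).

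Atp2a1 measured 96.7, 18.3, 108.7 and 53.6 at 22 C and 801.6, 829.2, 45.3 and 2511.8 at 30 C. Of the warm libraries 3 were high and replicate 3 was not, and Ckm had the same pattern (26.7 to 78.0 at 22 C; 625.5, 468.1, 31.5 and 1868 at 30 C). The log2 fold change was 3.19 ± 1.11 (SE, adjusted p = 0.151 by limma), and without replicate 3 of the 30 C group it was 4.36 (0.0214). None of 11 tested muscle genes was called, and with the muscle list as a term the Atp2a1 log2 fold change was 0.45 (adjusted p = 0.773 by limma). In the wider lists, Mat2a, which makes the methyl donor used by Gamt, rose at 30 C (0.48 ± 0.10, SE; limma adjusted p = 0.0285). The adenylate kinase Ak3 (-0.44 ± 0.07; 0.0111) and the methyltransferase Nnmt (-0.32 ± 0.07; 0.0396) fell. The other 12 of 15 tested genes of the creatine list did not pass, where 4.45% of all tested genes were called. The list's median was -0.18, against 0.01 over all tested genes. Smdt1, a subunit of the mitochondrial calcium uniporter, fell (-0.35 ± 0.08, SE; limma adjusted p = 0.0492), 1 of 27 calcium genes tested, with a list median of 0.06. With 1 library left out, Ak3 kept its call in 8 of 8 fits, Mat2a in 2, Nnmt in 1 and Smdt1 in 1. With the muscle list as a term, none of the 4 was called (0.0702 for Ak3, 0.202 for Mat2a, 0.118 for Nnmt and 0.104 for Smdt1).

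The TrkA-flox Th-cre mice were compared with wild-type mice at P28 and 22 C. No member was called, of 8 tested, where 2.66% of all tested genes were, 1.34% as higher and 1.32% as lower; 4 members had an unadjusted p under 0.05, and Ckmt2 and Slc6a8 were too low to test. The members' median log2 fold change was -0.23, against -0.01 over all tested genes. Groups of 3 members did not overlap (Atp2a1, Atp2a2 and Gatm), where 11.2% of tested genes had such groups. The wild-type libraries are those of the temperature comparison, so the 2 sets of values are not independent.

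Gatm measured 85.3, 75.1, 72.0 and 87.1 in wild-type and 51.1, 59.4, 57.4 and 57.3 in TrkA-flox Th-cre libraries. The lower group was narrow, at 56.3 ± 3.60 against 79.9 ± 7.44 (SD, n = 4 each), and the log2 fold change was -0.49 ± 0.13 (SE, adjusted p = 0.0823 by limma). Ckb measured 209.0, 187.3, 134.3 and 202.4 in wild-type and 117.9, 98.1, 118.9 and 201.1 in TrkA-flox Th-cre libraries. Of the latter 3 were below all wild-type libraries and replicate 4 was not (log2 fold change -0.48 ± 0.22, SE; limma adjusted p = 0.268; -0.69 and 0.0390 without that replicate). Ucp1 in the 4 TrkA-flox Th-cre libraries was 180 to 635, against 842 to 1934 in wild-type.

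Atp2a2 was 1307 ± 106 and 1118 ± 34.1 (SD, n = 4 each; log2 fold change -0.22 ± 0.08, SE; limma adjusted p = 0.179). Alpl (31.3 ± 7.56 and 28.5 ± 4.31), Gamt (68.7 ± 16.1 and 57.9 ± 11.8) and Ryr2 (13.4 ± 3.68 and 13.0 ± 5.21; SD, n = 4 each) overlapped between the groups. Atp2a1 was 16.0 to 96.3 in wild-type and 894.7, 141.7, 175.3 and 242.2 in TrkA-flox Th-cre libraries (log2 fold change 2.41 ± 0.64, SE; limma adjusted p = 0.0787, or 0.0241 with replicate numbers as a block). Beside it, Ckm was 23.3 to 69.1 and 108 to 570, and 3 of 12 tested muscle genes rose (Myh2, Mybpc2 and Ttn) while none fell; the summed muscle list ran from 468 to 1072 and from 1351 to 6703. With the muscle list as a term, the Atp2a1 log2 fold change was 0.18 (adjusted p = 0.944 by limma). The mean log2 value of that list did not overlap between the groups (3.80 to 4.55 in wild-type, 4.89 to 7.04 in TrkA-flox Th-cre libraries). The term therefore takes out much of the genotype difference itself, and this fit cannot separate muscle RNA from genotype. None of 14 tested genes of the creatine list was called, where 2.66% of all tested genes were. Phospho1 stood at -0.77 ± 0.24 in log2 units (SE, adjusted p = 0.128 by limma). Of 27 other calcium genes Atp2b4 fell (-0.56 ± 0.11, SE; limma adjusted p = 0.0314, called in 3 of 8 fits with 1 library left out; 0.0551 with replicate numbers as a block) and none rose.

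**Figure D2:**
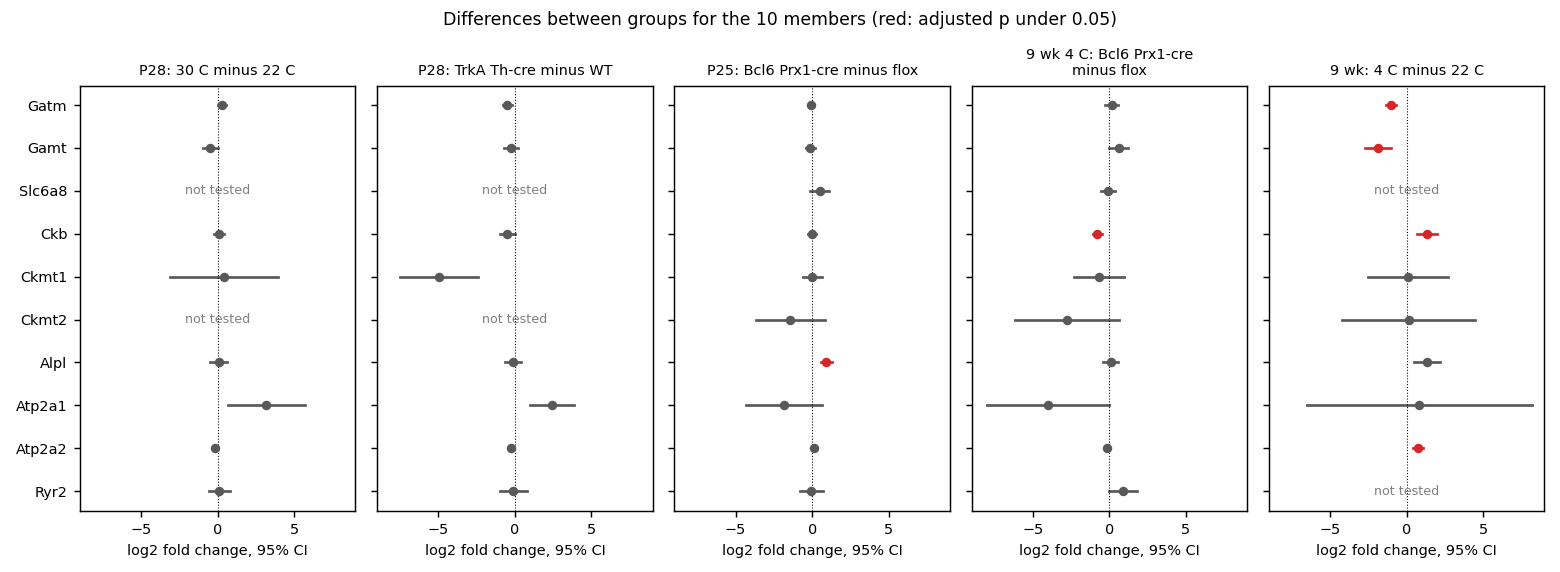
Log2 fold change (points) and 95% confidence interval (lines) of the 10 members in each of the 5 comparisons, second group minus first as the panel titles state; red marks an adjusted p under 0.05, and members too low for the filter are marked as not tested. Red appears for Gatm, Gamt, Ckb and Atp2a2 in adult cold, Ckb in the adult Bcl6 comparison and Alpl at P25; the intervals of Atp2a1, Ckmt1 and Ckmt2 are several log2 units wide in most panels.

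Whether cooling acted differently at the 2 ages was tested as the difference of the cooler-minus-warmer log2 fold changes, 4 C minus 22 C at 9 weeks less 22 C minus 30 C at P28. Of 7 members testable in both tables, 3 passed, where 3.33% of all such genes did. Ckb rose in adult cold and did not differ detectably at P28, a difference of 1.45 ± 0.32 (SE; limma estimates with a t reference, adjusted p = 0.0290). Gamt fell in adult cold and was, without passing, higher in the cooler group at P28, a difference of -2.36 ± 0.43 (SE; adjusted p = 0.0114). Gatm had a difference of -0.73 ± 0.18 (SE; adjusted p = 0.0343). Atp2a2 (0.57 ± 0.16; 0.0876) and Alpl (1.39 ± 0.44; 0.103) did not pass. Age, the temperatures compared and the table differ together here and cannot be told apart. Gamt kept its call in all 16 fits with 1 library left out; Ckb lost it without 9-week 22 C replicate 1, 2 or 4 or 4 C replicate 1 (0.0734 to 0.104), and Gatm lost it in 11 of the 16 fits (0.0502 to 0.112), those without P28 22 C replicate 1 or 4, 30 C replicate 3 or 4, any 9-week 22 C replicate, or 4 C replicate 1, 3 or 4.

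The Bcl6 effects at 9 weeks in the cold and at P25 were set against each other in the same way. None of the 10 members passed, where 0.304% of all genes testable in both did; 3 of them had an unadjusted p under 0.05 (limma estimates with a t reference). The Ckb difference was -0.77 ± 0.18 (SE; adjusted p = 0.0933), the Alpl difference -0.85 ± 0.28 (0.277) and the Gamt difference 0.73 ± 0.32 (0.508). So Ckb, called at 9 weeks alone, and Alpl, called at P25 alone, were not shown to respond differently in the 2 comparisons. Age, temperature (4 C at 9 weeks, 22 C at P25) and table differ together here and cannot be told apart. Xist was also high in all 9-week libraries, but at P25 in 3 of 7 flox and 4 of 8 Prx1-cre libraries. Without flox replicate 3 of the 9-week table, the library with the most Ckm, Ckb (adjusted p = 0.0402), Alpl (0.0276) and Ckmt1 (0.0191) passed. Ckb also passed without P25 flox library F4 (0.0354) or 9-week Prx1-cre replicate 3 (0.0307).

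Atp2a1 and Ckmt2 followed muscle transcripts from library to library. In 39 libraries with Ckm of at least 10, the ratio of Atp2a1 to Ckm kept to 0.688 to 2.20 (median 1.39), while Ckm itself ran over more than 3 orders of magnitude. With each group centred on its mean, the correlation of log2 values over the 43 libraries was 0.995 for Atp2a1 with Ckm and 0.986 with Acta1, and 0.924 and 0.944 for Ckmt2. The 3 genes most like Atp2a1 among 11377 tested in every table, by the same measure, were Ckm (0.995), Tnnt3 (0.992) and Myh4 (0.989), all of fast skeletal muscle. Atp2a2 had a correlation of 0.02 with Ckm, Gatm 0.17, Gamt 0.16, Alpl 0.13 and Ckb -0.33. These correlations are over libraries that share groups and tables, and are given as descriptions.

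The P25 groups are large enough for a test within each genotype. Against the mean log2 value of the muscle list, Atp2a1 had Pearson's r of 0.990 in the 8 Prx1-cre libraries (Spearman's rho 0.976, exact permutation p = 0.00040, adjusted 0.00794; adjusted exact two-sided permutation p of r = 0.000992) and 0.917 in the 7 flox libraries (rho 0.679, exact permutation p = 0.110, adjusted 0.365; adjusted permutation p of r = 0.0268). Ckmt2 had r of 0.955 (rho 0.934, exact permutation p = 0.00169, adjusted 0.0169; adjusted permutation p of r = 0.00992) and 0.922 (rho 0.857, exact permutation p = 0.0238, adjusted 0.159; adjusted permutation p of r = 0.0268). Over these 20 tests no other member passed. Without the 2 libraries farthest from the median muscle score, r for Atp2a1 was 0.985 in Prx1-cre and 0.418 in flox libraries, and for Ckmt2 0.906 and 0.633, so in flox mice the Atp2a1 relation rests on those libraries. None of the 20 tests passed on that smaller number of libraries, which also raises the smallest p that an exact permutation test can give. Alpl, the called member, had r of -0.741 in Prx1-cre libraries (rho -0.714, exact permutation p = 0.0576, adjusted 0.288; adjusted permutation p of r = 0.111) and 0.229 in flox libraries (rho 0.286, exact permutation p = 0.556, adjusted 0.728; adjusted permutation p of r = 0.712).

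**Figure D3:**
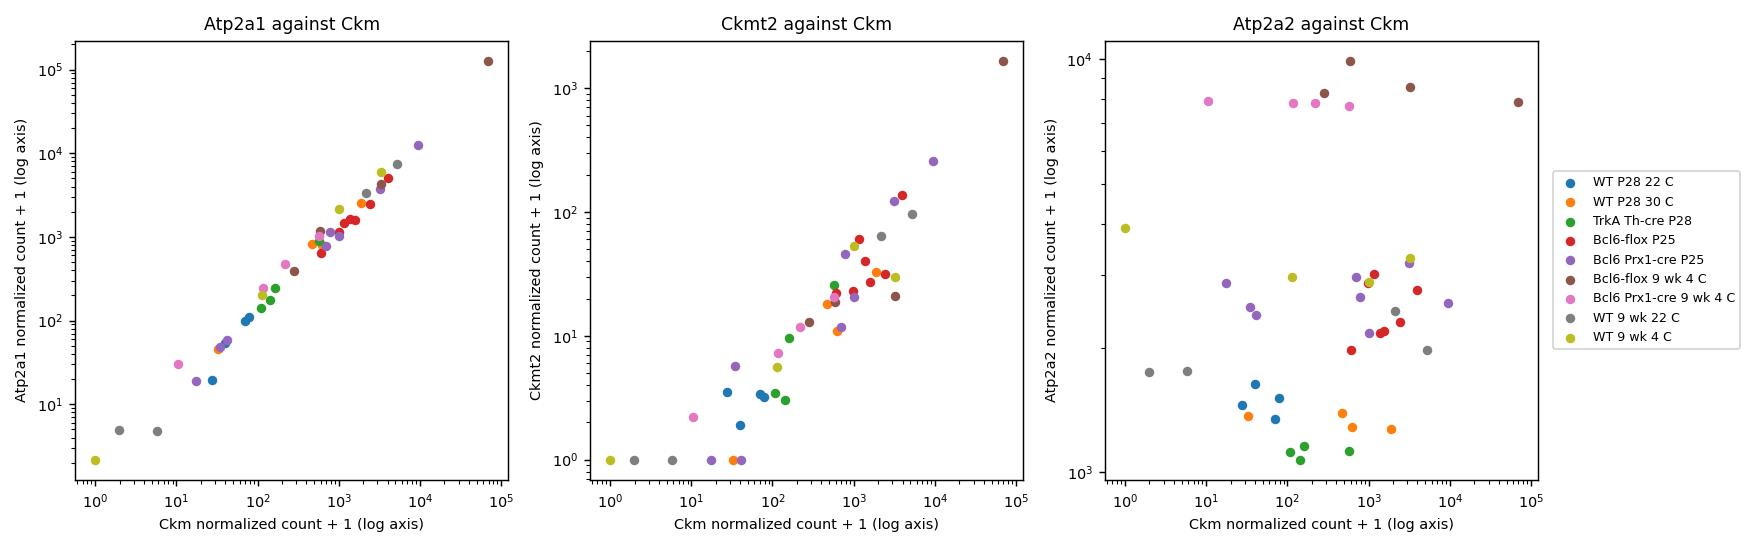
Atp2a1, Ckmt2 and Atp2a2 against Ckm in the 43 libraries (normalized count + 1, both axes log), coloured by group. Atp2a1 and Ckmt2 climb with Ckm across all groups up to 1 Bcl6-flox library at 9 weeks (Ckm 69363), whereas Atp2a2 forms level bands by table and group.

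Ckmt1, the ubiquitous mitochondrial kinase of epithelia and brain, followed epithelial transcripts instead. Centred within groups, its log2 value had a correlation of 0.90 with Krt8 and 0.87 with Epcam over the 43 libraries, against 0.14 with Ckm. The genes most like it were Cutal (0.95), Vdr, the vitamin D receptor gene (0.94), and Slc44a4, a choline transporter gene (0.94). At P28 it measured 16.1, 260.8, 1225.6 and 408.9 at 22 C, where Krt8 was 25.9, 884, 4394 and 2114, and 1691.8, 1119.7, 149.9 and 23.8 at 30 C, where Krt8 was 6664, 3671, 665 and 56.2. Both genes ranked the 4 libraries of each temperature alike. The ratio of Ckmt1 to Krt8 was not constant. It was 0.175 to 0.289 in the P25 libraries, 0.193 to 0.620 in the P28 wild-type libraries and 0.0172 to 0.261 in the TrkA-flox Th-cre libraries with Krt8 of 10 or more. At 9 weeks it was 0.00949 to 0.0244 in the Bcl6 libraries, all at 4 C, 0.00464 to 0.0181 in wild-type libraries at 4 C and 0.0218 to 0.172 at 22 C, so the ranges of the ages met. No test across separately normalized tables was made.

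In the TrkA comparison Ckmt1 measured 13.2, 211.5, 1007.0 and 333.0 in wild-type libraries and 2.17, 14.3, 9.12 and 1.05 in TrkA-flox Th-cre libraries. The wild-type library 1 fell among the latter, and the difference of -4.99 ± 1.14 in log2 units did not pass (SE, adjusted p = 0.0505 by limma). Krt8 was 22.9, 773, 3893 and 1857 in those wild-type libraries and 32.7, 54.5, 529 and 8.65 in the TrkA-flox Th-cre libraries. TrkA-flox Th-cre library 3 thus had 529 of Krt8 with 9.12 of Ckmt1, where wild-type library 2 had 773 and 211.5. Ckmt1 passed in 3 of 17 other fits: without wild-type replicate 1 (-6.20; adjusted p = 0.00317), with replicate numbers as a block (0.0250) and with the epithelial list as a term (-4.26; 0.0409). It did not pass in the other 14, the p reaching 0.152 with 1 library left out and 0.493 with the muscle list as a term. The muscle list did not overlap between these groups, so the fit with its term cannot separate muscle RNA from genotype. Xist was high in 2 of 4 wild-type and 1 of 4 TrkA-flox Th-cre libraries, the centred correlation of Ckmt1 with Xist over the 43 libraries was 0.60, and with Xist as a term the log2 fold change was -4.38 (adjusted p = 0.0502 by limma).

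**Figure D4:**
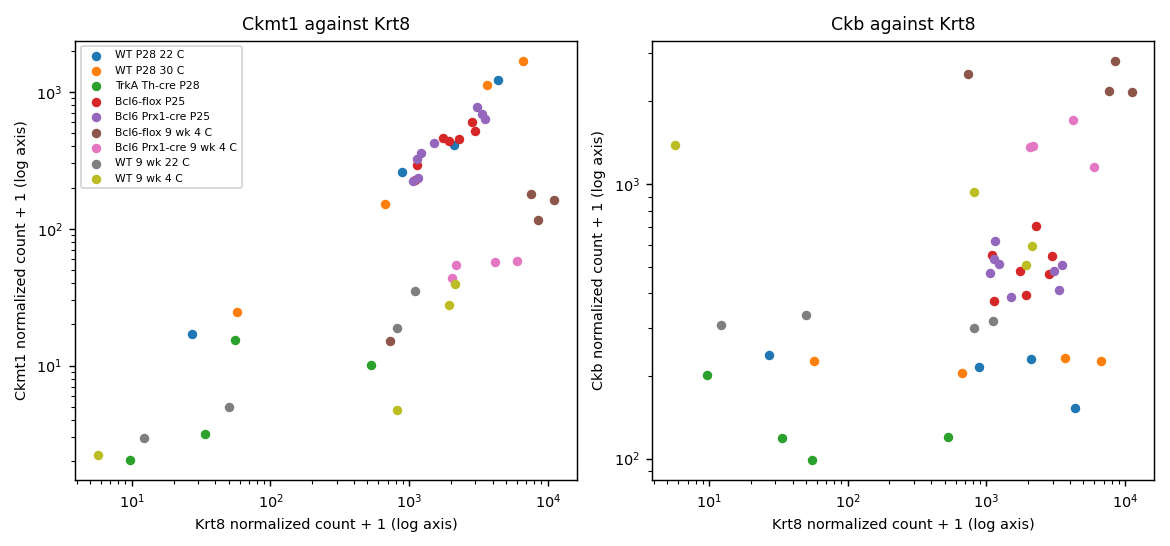
Ckmt1 and Ckb against Krt8 in the 43 libraries (normalized count + 1, both axes log), coloured by group. Ckmt1 climbs with Krt8 and at the higher Krt8 levels the P25 and P28 wild-type libraries lie above the 9-week ones and 1 TrkA-flox Th-cre library (Krt8 529), while Ckb shows bands by group with no climb.

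Levels of different members can be compared per kilobase of transcript. In adult wild-type mice at 22 C, Atp2a2 stood at 442 ± 73.3 normalized counts per kb, Ckb at 212 ± 10.6, Gamt at 128 ± 37.0, Gatm at 51.2 ± 3.78, Alpl at 39.3 ± 21.0, Ckmt1 at 8.91 ± 9.16, Slc6a8 at 1.98 ± 1.30 and Ryr2 at 0.351 ± 0.090 (SD, n = 4 each). Atp2a1 stood at 779 ± 1020 and Ckmt2 at 26.7 ± 32.0 (SD, n = 4 each), with libraries down to 1.10 and 0 per kb. Gatm and Alpl did not differ beyond their spread, nor did Alpl, Ckmt2 and Ckmt1. At 4 C the per-kb order changed: Ckb reached 582 ± 272 and its libraries (345 to 945) spanned those of Atp2a2 (729 ± 103), and Alpl, at 88.4 ± 11.2, stood above Gamt (35.7 ± 16.2) and Gatm (24.9 ± 2.36; SD, n = 4 each). Every Alpl library at 4 C (74.4 per kb or more) was above every Gamt library (55.2 or less), while at 22 C every Gamt library (82.8 or more) was above every Alpl library (57.6 or less).

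Within groups, the spread separated the members into steady and patchy genes. The median over the 9 groups of the coefficient of variation was 9.43% for Gatm, 10.2% for Atp2a2, 16.6% for Ckb, 23.5% for Gamt and 23.9% for Alpl. It was 93.3% for Ckmt1, 99.5% for Atp2a1 and 113% for Ckmt2, against 107% for Ckm and 81.7% for Krt8. Slc6a8 (49.3%) and Ryr2 (30.5%) lay between, at levels where few reads were counted. Among steady members, genes most like each in centred log2 value were Lman1 (0.83), Hspa4 (0.80) and Prpf8 (0.78) for Atp2a2, Metrn (0.71) and Col5a3 (0.71) for Gamt, and Spire1 (0.71), Sfi1 (0.66) and Sorl1 (0.66) for Alpl. For Ckb they were Hcfc1 (0.69), Tesk1 (0.66) and Atf5 (0.66), and for Gatm Pcp4l1 (0.60) and Mesd (0.58). These likenesses are over 43 libraries, are much looser than those of Atp2a1 and Ckmt1, and carry no test.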

How the data were processed

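Poly(A) RNA of flash-frozen tissue was sequenced after a stranded mRNA library kit, per the labels' protocols. The files hold a normalized count signal per gene and library, deposited as 5 tables; kallisto, DESeq2 and mm10 are named in the submitters' processing notes, without versions. The authors' tables were scaled separately, so levels were compared within 1 table only, and between tables only log2 fold changes were. The 4 libraries present in both P28 tables differed by a constant factor, within 1%, for 79.7 to 79.8% of genes, so values do not always carry 1 scaling factor per library. Depth was estimated from the step between low values, taken as what 1 read adds. Within a tolerance of 0.02, between 6.24 and 70.3% of them were whole multiples, so whole reads were not recovered and the adult depths are rough.

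The members and gene lists were chosen with earlier results of these data known. Within each table, limma 3.58.1 (R 4.3.3) with its mean-variance trend was run on log2(value + 1). A gene entered when its value was 10 or more in a number of libraries equal to the smaller group. Benjamini-Hochberg adjustment covered every tested gene, at a threshold of 0.05. The added 1 shrinks differences of low genes. Differences between tables used a t reference with Welch-Satterthwaite degrees of freedom. Named genes were all members, Ckm and Acta1, up to 3 called genes of each other list, and the 3 genes most like each member by centred correlation (a few items under this rule are not reported here); naming every called gene of the 2 pathway lists, and Ucp1, Xist, Epcam and Krt8, was chosen after values were seen. Exact permutation tests were two-sided (SciPy 1.17.1). The fits were also run on simulated data with 100 genes changed 2-fold and 100 changed 4-fold. For adult temperature they called 41% of the 2-fold and 84% of the 4-fold changes. In the other comparisons they called 70 to 82% and 92 to 100%. A gene that was not called may therefore still have changed, most of all in adult cold. The labels do not state that replicates came from different mice, and p-values therefore speak of the spread among these samples, which may be technical. Columns of the P25 table match a group but no single sample title, and are named by their codes. Replicate numbers were not taken as pairs in the main fits. Promoter windows come from RefSeq (GRCm38.p6). Figures were drawn with matplotlib 3.10.9 (Python 3.11.15).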

Additional observations from a re-analysis of the deposited data

Results flagged for a closer look

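Of 90 member-by-group sets of libraries, 7 held 1 library far from the others (Dixon's test at 95%, which chance passes in about 1 of 20). For Atp2a1 these were 127700 in 9-week Bcl6-flox replicate 3 (next 4288), 12690 in P25 Prx1-cre library F2 (next 3700), 5098 in P25 flox library M2 (next 2463) and 895 in TrkA-flox Th-cre replicate 1 (next 242). For Ckmt2 they were 1666 in 9-week Bcl6-flox replicate 3 (next 20.1) and 135 in P25 flox library M2 (next 60.0). In each of these 6 the same library also had the highest Ckm of its group. Gatm was 334 in P25 Prx1-cre library M4 (next 255.5), where Ckm, at 694, was within the range of its group.

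Of the differences between the cooling effects at 9 weeks and P28, 3 passed their test. Age, the temperatures compared and the table differ together in them. The cooler-minus-warmer effect at 9 weeks differed from that at P28 by 1.45 on the log2 scale for Ckb, by -2.36 for Gamt and by -0.73 for Gatm.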

How the results depend on the processing

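Over the settings run (pseudocounts of 0.5 and 5, no filter, a filter at 50, upper quartile scaling, quantile normalization, terms for the muscle list, the mammary epithelium list or Xist, a replicate block, and each library left out), 1325 of the recomputed fold changes, differences and correlations of members and called pathway genes kept their direction and side of the threshold, 133 lost the threshold, 25 gained it and 64 turned sign. The epithelium term and the left-out libraries of the 2 differences were chosen after seeing the data. The Xist term could not be run for the adult Bcl6 table, where all libraries are Xist-high, and the cause of the changes below was not tested.

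Counts of called members moved in these fits. For TrkA, 2 were called with the replicate block (Ckmt1 and Atp2a1) and 1 with the epithelium term; for adult Bcl6, 2 with the muscle term and 3 with the epithelium term. With a normal in place of a t reference, 1 member passed in the Bcl6 difference and 5 in the temperature difference. Of the 4 correlations at P25, 0 passed without the 2 farthest libraries. There r was 0.985 (Atp2a1) and 0.906 (Ckmt2) in Prx1-cre and 0.418 and 0.633 in flox libraries. Fewer libraries raise the smallest p that an exact permutation test can give, so this count cannot separate weaker relations from fewer libraries. With 1 library left out, counts ran from 0 to 1 for P28 temperature, 0 to 1 for TrkA, 1 to 1 for P25, 1 to 2 for adult Bcl6, 0 to 3 for adult temperature, 0 to 3 for the Bcl6 difference and 1 to 3 for the temperature difference; genes called over the whole adult temperature table then fell from 542 to between 36 and 356. In the P28 tables the muscle term left 78 genes (of 547) and 15 (of 317) called. For TrkA the muscle list did not overlap between the groups, so its term takes out much of the genotype difference.

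Sign changes concerned members that were not called. With the muscle term: P28 temperature Ryr2 -0.062, TrkA Alpl 0.35, adult Bcl6 Ckmt2 0.32, Slc6a8 0.13 and Alpl -0.19, adult temperature Ckmt1 -0.087 and Ckmt2 -0.24, and the Bcl6 difference for Ckmt2 0.46 and Atp2a1 0.055. With the epithelium term: P28 temperature Ckmt1 -0.76, adult Bcl6 Ckmt1 0.17, and adult temperature Ckmt1 -0.40, Ckmt2 -0.59 and Atp2a1 -0.48. P28 temperature Ckmt1 was -0.58 with the Xist term, TrkA Ryr2 was 0.034 with quantile normalization, and adult temperature Ckmt2 was -0.22 with a pseudocount of 5 and -0.21 with quantile normalization. With 1 library left out, log2 fold changes spanned 0 for these members. At P28 by temperature they ran from -0.81 to 1.60 for Ckmt1, -0.080 to 0.21 for Alpl, -0.051 to 0.28 for Ryr2 and -0.036 to 0.18 for Ckb, and for TrkA from -0.27 to 0.22 for Ryr2. At P25 they ran from -0.088 to 0.061 for Ckb, -0.12 to 0.15 for Ckmt1 and -0.22 to 0.16 for Ryr2. In adult Bcl6 they ran from -0.098 to 0.21 for Alpl, -0.0094 to 0.30 for Gatm and -0.20 to 0.037 for Slc6a8, and by adult temperature from -0.58 to 0.81 for Ckmt1, -0.92 to 1.28 for Ckmt2 and -0.86 to 3.14 for Atp2a1. The differences ran from -0.74 to 1.66 for Ckmt1 (temperature) and -2.03 to 0.31 for Ckmt2 (Bcl6).

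Same-numbered libraries had correlated deviations of -0.66 to -0.02 (P28 temperature), -0.14 to 0.21 (TrkA), -0.35 to 0.16 (adult Bcl6) and -0.26 to 0.77 (adult temperature), and matched best in 0, 2, 1 and 2 of 4 cases. For adult temperature, replicates 2, 3 and 4 had 0.77, 0.50 and 0.51, and replicate 1 had -0.26. Whether a number marks samples handled together there was not tested. With the replicate block 0 members were called for P28 temperature, 1 for adult Bcl6 and 5 for adult temperature (Alpl added). No paired analysis was possible at P25 because its columns carry no replicate number of the labels. Slc6a8, Ryr2 and Ckmt2 are limited by depth in the tables where they fall under the filter.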
